A study of Homo sapiens with 4 samples.

Results

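The genes described here are 10 imprinted genes: DLK1, MEG3, MEG8 and MEG9 of the DLK1-MEG3 domain on chromosome 14, and H19, IGF2, KCNQ1OT1, CDKN1C, PEG3 and PEG10 from 4 other imprinted loci. They are 10 of the 60708 genes of the count table and were found by matching the table's gene identifiers to these symbols. The set was chosen by its measured values in these same libraries, with the contrast of 52X T4A and 52X WT in view. The changes of these 10 genes between the groups are therefore given as a description, and they support no claim of their own. Their fold changes, p-values and calls come from the fits over all genes and are not a test of this set.

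Imprinted genes are transcribed mainly from the allele inherited from one parent, because DNA methylation laid down in the egg or the sperm marks the alleles differently. They lie in clusters in which a long noncoding RNA is often made from one allele while protein-coding neighbours are made from the other. Many of them govern growth of the embryo and the placenta, and in the DLK1-MEG3 domain the maternal allele also makes a long series of microRNAs and small nucleolar RNAs. The counts hold no information on the parental allele, so every level below is that of all copies together.

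The libraries are TT-seq libraries, in which RNA made during 20 min of labelling with 4-thiouridine was fragmented, pulled down and sequenced by strand. The cells were RPB1 degron HEK293 cells, an embryonic kidney line in which auxin leads to loss of the endogenous largest subunit of RNA polymerase II. All cells were transiently transfected with a plasmid for RPB1, kept for 48 h and then given auxin for another 48 h before labelling. The groups were 52X WT, with the wild-type sequence of the C-terminal domain, and 52X T4A, with threonine 4 of each repeat changed to alanine, and each had 2 libraries. No group without auxin and no untransfected group was analysed here. Because transfection was transient, the cells that took up plasmid and those that did not cannot be told apart, nor can fewer cells that express a gene and less RNA per cell. Nothing in the labels says that the 2 libraries of a group came from separate cultures, so p-values measure only the spread between these libraries.

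Library totals ran from 33188536 to 45605027 counts. POLR2A, the gene of RPB1, held 0.743% to 0.961% of the counts, with a log2 fold change of -0.24 (SE 0.25), and reads of plasmid and endogenous origin cannot be told apart in it. Of 10 genes typical of HEK293 cells, 9 had over 3 counts in each library. The same held for 8 of 12 markers of other cell types, so this threshold does not show cell identity. The summed level of the HEK293 genes lay between 471 and 563 CPM (counts scaled to the library size). That of the other markers lay between 5.49 and 8.73 CPM. In edgeR's quasi-likelihood test over 23321 genes, 1 gene had an adjusted p below 0.05 and a fold above 1.5, which is 0.00429% of the genes tested. An unadjusted p below 0.05 was found for 1737 genes (7.45%) that were higher and for 1870 (8.02%) that were lower in 52X T4A. Groups that did not overlap, with both 52X T4A libraries above or below both 52X WT libraries, were seen for 24.8% of tested genes in the higher and 24.7% in the lower direction. Leaving out 52X T4A replicate 2 gave 2500 calls, in a fit that takes its whole spread from the 52X WT libraries and assumes that the remaining 52X T4A library varies like them.

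Not every one of the 10 genes could be measured. Reads that lay over 2 genes of the same strand were not counted, and the 9293 genes of the table without a base of their own had no count in any library. IGF2, the fetal growth factor, spans chr11:2129112-2141238 on the minus strand (GRCh38) and shares 100% of this span with genes of its strand, among them INS-IGF2. PEG3, a paternally expressed zinc finger gene at chr19:56810077-56840728 on the minus strand, lies whole inside ZIM2. Both were listed at 0 in each library, and these zeros carry no information on their transcription. ZIM2 itself had 4 and 0 counts in 52X WT and 8 and 0 in 52X T4A. Of the other 8 genes, 4 passed the filter on low counts (at least 0.274 CPM in 2 libraries): KCNQ1OT1, CDKN1C, PEG10 and MEG8. MEG3, DLK1, H19 and MEG9 did not pass it.

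The domain on chromosome 14 is shown first by the sequences it encodes, since many of its listed genes are small RNA genes, most of which have no base of their own and so cannot be counted. Between DLK1 and DIO3 the RefSeq set held 50 entries for microRNA hairpins, of which 2 lie in the listed span of MEG3 and 13 in that of MEG8. Separately, it held 96 entries for mature sequences on the plus strand, and not all of these belong to a hairpin with an entry. The mature sequences have 81 distinct seeds, the seed being bases 2 to 8 that pair with target RNAs. Of the entries for mature sequences, 28 share their seed with another entry of the domain. For miR-329-5p, miR-329-3p and miR-1185-5p the other entry is only a second copy of the same sequence, and miR-376a-3p is also entered more than once. The count table had 46 microRNA genes in the domain, of which 17 had bases of their own and 4 had any count. MIR654 and MIR541 had 2 counts each in 52X WT replicate 1 and none elsewhere. MIR496 had 1 count in 52X WT replicate 2, and MIR134 had 1 count in 52X T4A replicate 1. All 45 small nucleolar RNA genes of the domain lacked a base of their own. The mature sequences of the hairpins with a count are printed below as RefSeq gives them on GRCh38.p14, 5′ to 3′ and with the seed in capitals. Those of 1 further seed family follow, which is the one seed held by 3 differently named mature sequences.
hsa-miR-654-5p: uGGUGGGCcgcagaacaugugc
hsa-miR-541-3p: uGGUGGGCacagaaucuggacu
hsa-miR-654-3p: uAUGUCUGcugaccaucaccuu
hsa-miR-541-5p: aAAGGAUUcugcugucggucccacu
hsa-miR-134-5p: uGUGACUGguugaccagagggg
hsa-miR-134-3p: cCUGUGGGccaccuagucaccaa
hsa-miR-496: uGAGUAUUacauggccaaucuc
hsa-miR-494-5p: aGGUUGUCcguguugucuucucu
hsa-miR-410-5p: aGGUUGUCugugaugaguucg
hsa-miR-323b-5p: aGGUUGUCcguggugaguucgca
The seed GGUGGGC was common to miR-654-5p and miR-541-3p, whose hairpins were also the pair with counts in the same library. The seed GGUUGUC was common to miR-494-5p, whose hairpin lies in the span of MEG8, and to miR-410-5p and miR-323b-5p, whose hairpins lie beyond it. With at most 2 counts for any hairpin, no difference in hairpin transcription between the groups was detectable at this depth.

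MEG8, a maternally expressed long noncoding RNA, spans chr14:100894770-101038859 on the plus strand, and 87.98 of its 144.09 kb are not shared with another gene of that strand. RefSeq places MEG8 at chr14:100889649-100999113. Only 49.3 kb of the counted length lie within that span, and the rest lies outside RefSeq's MEG8. The listed MEG8 had 7 and 5 counts in 52X WT replicates 1 and 2, against 31 and 29 in 52X T4A replicates 1 and 2. Both 52X T4A libraries lay above both 52X WT libraries. The normalised level was 0.146 ± 0.0463 CPM (SD, n = 2) in 52X WT and 0.881 ± 0.0599 CPM in 52X T4A, and the fitted log2 fold change was 2.58 (SE 0.54). Of the 23321 tested genes, 36 had a larger log2 fold change. MEG8 passed the low-count filter only through its 52X T4A libraries, so among tested genes of its level in 52X WT it had to be higher in 52X T4A. MEG8 was not called in edgeR's main fit of the 4 libraries. A further edgeR fit of the 4, with the replicate number as a block, did call it. Since MEG8 was chosen on this contrast, that call supports nothing. Without 52X T4A replicate 2 its log2 fold change was 2.63, in a fit that leaves 1 library of 52X T4A.

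These are small numbers of molecules. Between 83.1% and 86.5% of a library's values from 1 to 10 were even, so that each mate of a read pair seems to have been counted by itself, and the MEG8 counts then stand for 3.5 and 2.5 read pairs in 52X WT and 15.5 and 14.5 in 52X T4A. Rounded up to whole pairs, the exact Poisson 95% intervals were 1.09 to 10.2 and 0.619 to 8.77 pairs in 52X WT, and 9.15 to 26 and 8.4 to 24.7 pairs in 52X T4A. They cover counting error only, and the interval of 52X WT replicate 1 overlapped those of both 52X T4A libraries, while that of 52X WT replicate 2 overlapped that of 52X T4A replicate 2. With counts halved to read pairs, the log2 fold change was 2.41.

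To place such levels, counts were divided by the unshared length of a gene and by the normalised library size, which gives a density in CPM per kb. As a measure of genes that are mostly silent outside the olfactory epithelium, 351 olfactory receptor genes (2110.4 kb) were summed, of which 186 had any count. Their density was 0.00651 and 0.00584 in 52X WT and 0.0101 and 0.00693 in 52X T4A. Without the 10 most counted it was 0.00415 and 0.00329 in 52X WT and 0.00751 and 0.00463 in 52X T4A. MEG8 had a density of 0.00203 and 0.00129 in 52X WT, below both values of the same libraries. In 52X T4A it had 0.0105 and 0.00953, above both. Its density was 6.03 times as high in 52X T4A as in 52X WT, against 1.38 times for the olfactory receptor genes and 1.63 times for these without the 10 most counted. MEG8 was chosen on this contrast and passed the filter only through 52X T4A, whereas the olfactory receptor values are sums over many genes. These comparisons of density between MEG8 and the olfactory receptor genes therefore support nothing. The summed level of markers of other cell types moved in the same direction. All 12 matched markers had a count, and their summed level was 6.62 and 5.49 CPM in 52X WT and 8.73 and 8.3 CPM in 52X T4A. All 7 tested had a positive log2 fold change (median 0.67), but the groups overlapped for 4 of them. CDH5 and CD3E passed the low-count filter only through their 52X T4A libraries, so their sign was fixed by the filter and the 7 signs support nothing. The part of the shift of olfactory receptor genes and markers in the MEG8 values was not tested.

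**Figure D1:**
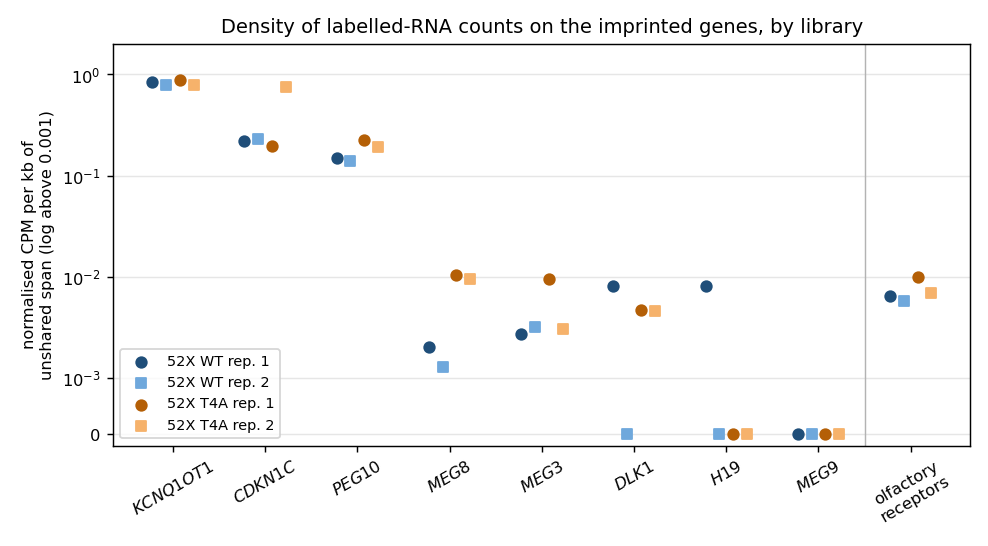
Density in normalised CPM per kb of unshared span for the 8 measurable imprinted genes and for 351 olfactory receptor genes summed, with 1 point per library (blue 52X WT, orange 52X T4A) on a log axis that is linear below 0.001. KCNQ1OT1, CDKN1C and PEG10 lie between 0.139 and 0.884, and the other 5 genes lie at or below 0.0105, near the olfactory receptor genes.

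MEG3, the maternally expressed long noncoding RNA that gives the domain its name, had 6 and 8 counts in 52X WT and 18 and 6 counts in 52X T4A. Its single high library was 52X T4A replicate 1, and the groups overlapped. The density was 0.00272 and 0.00322 in 52X WT, and 0.00951 and 0.00308 in 52X T4A. Without 52X T4A replicate 1 the density in 52X T4A was 1.04 times that in 52X WT. In the same replicate the density of the olfactory receptor genes was also the highest of the 4. MEG3 was not tested because it did not pass the low-count filter. The table lists it at chr14:100779410-100861031 on the plus strand, with 56.38 of 81.62 kb unshared, but its RefSeq start lies 46.7 kb further downstream. Only 10.0 kb of the 34.9 kb of RefSeq's MEG3 could be counted, so most of the counted length lies upstream of that start. The window of 300 bases that ends shortly after the RefSeq start, chr14:100825858-100826157 (GRCh38.p14, plus strand), is printed because it shows where in the listed span RefSeq's MEG3 begins. It is the most upstream of 3 promoter windows of MEG3, and the others are not described here. Capitals mark its 1 match, on the reverse strand, to TGCCGC, the sequence that the imprint keeper ZFP57 binds when it is methylated.
MEG3: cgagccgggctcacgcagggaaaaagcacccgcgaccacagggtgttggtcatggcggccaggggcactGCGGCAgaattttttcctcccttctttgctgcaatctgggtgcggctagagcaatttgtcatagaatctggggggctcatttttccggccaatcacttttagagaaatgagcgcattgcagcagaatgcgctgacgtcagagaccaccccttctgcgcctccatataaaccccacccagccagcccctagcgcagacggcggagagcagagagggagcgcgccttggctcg
The window held 19 CpG dinucleotides, against a median of 14 over 35116 promoter windows of that length, and 16.7% of these windows held TGCCGC on either strand. The match describes letters, and methylation was not measured.

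The 3 genes closest to MEG3 in their pattern over the 4 libraries were ENSG00000288714, CNBD1 and TEX41, by Euclidean distance of centred log2 CPM among 16756 tested genes with a mean of at least 50 counts. The distances were 0.175, 0.194 and 0.209. ENSG00000288714 had 50, 58, 144 and 52 counts in 52X WT replicates 1 and 2 and 52X T4A replicates 1 and 2. CNBD1 had 38, 44, 116 and 38, and TEX41 had 34, 42, 110 and 32. All 3 were highest in 52X T4A replicate 1 and about level in the other libraries. They were picked for likeness to MEG3, so this shared pattern follows from the selection and supports nothing.

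DLK1, the paternally expressed gene at the upstream end of the domain, encodes a transmembrane protein related to Notch ligands. It lies at chr14:100725705-100738224 on the plus strand, with all 12.52 kb unshared. It had 4 and 0 counts in 52X WT and 2 and 2 in 52X T4A, and the groups overlapped. MEG9, a further long noncoding RNA at chr14:101068283-101072937 on the plus strand, had 0 counts in each library. A count of 0 allows up to 3 read pairs, or 6 counts with mates counted singly, which for MEG9 is a density of 0.0292 to 0.0384, above that of the olfactory receptor genes. For DLK1 and MEG9 no difference between the groups was detectable at this depth.

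Over the 837.7 kb from DLK1 to DIO3 the table had 128 genes, 21 of them with any count and 1, MEG8, passing the filter. The plus strand, which holds the 4 genes of the set and the small RNAs, had 27 and 22 counts in 52X WT and 63 and 44 in 52X T4A. Its density was 2.65 times as high in 52X T4A. The minus strand had 6 and 8 counts in 52X WT and 32 and 16 in 52X T4A, and its density was 4.23 times as high. Without DLK1, MEG3, MEG8 and MEG9 the plus strand had 10 and 9 counts in 52X WT and 12 and 7 in 52X T4A, a density 1.22 times as high. MIR493HG, the host gene between MEG3 and MEG8 that overlaps both, had 4 and 0 counts in 52X WT and 8 and 0 in 52X T4A. RTL1, a retrotransposon-derived gene of the minus strand opposite MEG8, had 2 and 2 counts in 52X WT and 12 and 2 in 52X T4A. Both MIR493HG and RTL1 were highest in 52X T4A replicate 1. Upstream of DLK1, LINC00523 had 2 and 6 counts in 52X WT and 10 and 18 in 52X T4A, and it was named after its values were seen. The groups of LINC00523 did not overlap, and its log2 fold change was 2.07 (SE 0.73) with an adjusted p of 0.261 in edgeR's fit. Like MEG8, LINC00523 passed the low-count filter only through its 52X T4A libraries. Among tested genes of its level in 52X WT it therefore had to be higher in 52X T4A.

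**Figure D2:**
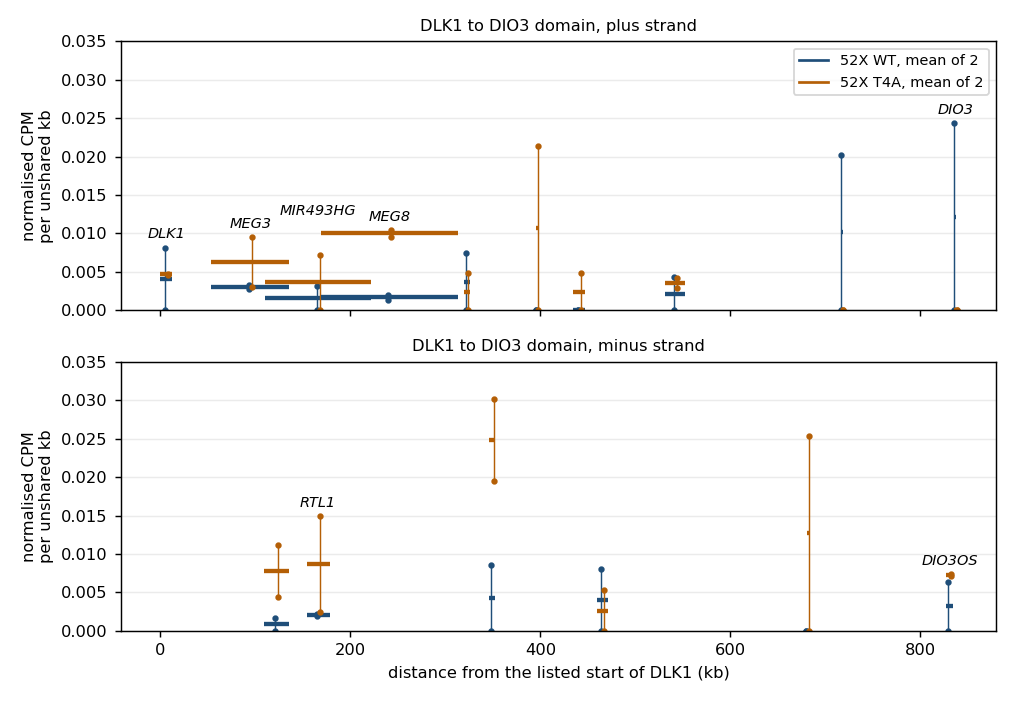
Density of counts (normalised CPM per unshared kb) of genes with at least 1 kb of unshared span in the domain, against the distance in kb from the listed start of DLK1, by strand. Horizontal bars span each gene at the group mean, thin vertical lines join the 2 libraries of a group, and MEG8 is the long gene whose 52X T4A libraries (0.0105 and 0.00953) stand together above its 52X WT libraries (0.00203 and 0.00129).

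Further upstream, beyond LINC00523, lie BEGAIN and WDR25. BEGAIN, on the minus strand, had 277 and 244 counts in 52X WT and 108 and 182 in 52X T4A, with a log2 fold change of -0.57 (SE 0.27) and an adjusted p of 0.346 in edgeR's fit. WDR25 had 2516 and 2841 counts in 52X WT and 2071 and 1958 in 52X T4A, with a log2 fold change of -0.12 (SE 0.09) and an adjusted p of 0.542.

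KCNQ1OT1 was the most densely transcribed of the 8 measurable genes. It is a paternally expressed long noncoding RNA that silences neighbouring genes in cis, and it runs antisense inside KCNQ1 at chr11:2608328-2699994 on the minus strand, with all 91.67 kb unshared. It had 3030 and 3180 counts in 52X WT and 2720 and 2498 in 52X T4A. After normalisation the levels were 74.8 ± 3.73 CPM (SD, n = 2) and 76.6 ± 6.21 CPM, so the groups overlapped and their means differed by less than the spread. The log2 fold change was 0.04 (SE 0.10). It was -0.036 without 52X WT replicate 2 and -0.042 without 52X T4A replicate 1, so its sign is not settled. The density of KCNQ1OT1 was between 0.787 and 0.884 in the 4 libraries, whereas KCNQ1, the potassium channel gene on the opposite strand, had a density between 0.0115 and 0.017.

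CDKN1C, a maternally expressed inhibitor of cyclin-dependent kinases in the same cluster, lies at chr11:2883213-2885775 on the minus strand and spans 2.56 kb. It had 22 and 26 counts in 52X WT and 17 and 66 in 52X T4A. The 52X T4A libraries lay on opposite sides of both 52X WT libraries, and 52X T4A replicate 2 alone was high, with 33 read pairs and an exact Poisson 95% interval of 22.7 to 46.3 pairs. The log2 fold change was 1.07 (SE 0.59), and it was -0.20 without 52X T4A replicate 2 and 1.73 without 52X T4A replicate 1. Each of these fits leaves 1 library of 52X T4A and assumes that it varies as the 52X WT libraries do. The density was 0.225 ± 0.00766 (SD, n = 2) in 52X WT and 0.471 ± 0.387 in 52X T4A. The higher mean of CDKN1C in 52X T4A thus rests on 1 library.

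Other genes of the cluster also separated the 52X T4A libraries from each other, as the plot of the cluster's genes relative to 52X WT shows. PHLDA2, which restrains placental growth, had 231 and 241 counts in 52X WT and 47 and 303 in 52X T4A, which was 0.246 and 1.54 times the 52X WT mean after normalisation. SLC22A18, a transporter gene, was at 0.406 and 1.18 times and CD81, a tetraspanin gene, at 0.489 and 1.29 times that mean in 52X T4A replicates 1 and 2. These were named after their values were seen. In the same libraries KCNQ1OT1 was at 1.08 and 0.966 times and CDKN1C at 0.879 and 3.31 times its 52X WT mean. NAP1L4, a histone chaperone gene, was at 1.14 and 1.04 times.

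**Figure D3:**
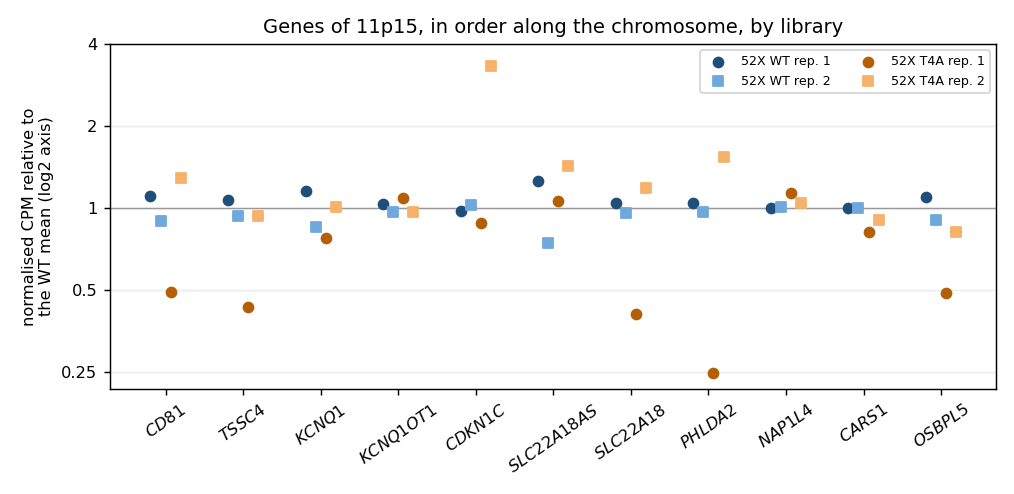
Normalised CPM of 11 genes of the KCNQ1OT1 and CDKN1C cluster relative to the mean of both 52X WT libraries, on a log2 axis, with 1 point per library and genes in order along the chromosome. KCNQ1OT1 stays between 0.965 and 1.08 in the 4 libraries, while 52X T4A replicate 1 is low for PHLDA2 (0.246) and 52X T4A replicate 2 is high for CDKN1C (3.31).

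H19 and IGF2 make up the other cluster of this chromosome arm. H19, a maternally expressed long noncoding RNA, lies at chr11:1995176-2001470 on the minus strand and had 2 counts in 52X WT replicate 1 and 0 in the other libraries. By the same limit of 6 counts, a count of 0 allows a density of 0.0219 to 0.0287 in those libraries. H19 is also the host of miR-675, whose mature sequences are printed with the seed in capitals, followed by the window of 300 bases around the RefSeq start of H19 (chr11:2001217-2001516, GRCh38.p14, minus strand) to set beside that of MEG3.
hsa-miR-675-5p: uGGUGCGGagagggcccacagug
hsa-miR-675-3p: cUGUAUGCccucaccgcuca
H19: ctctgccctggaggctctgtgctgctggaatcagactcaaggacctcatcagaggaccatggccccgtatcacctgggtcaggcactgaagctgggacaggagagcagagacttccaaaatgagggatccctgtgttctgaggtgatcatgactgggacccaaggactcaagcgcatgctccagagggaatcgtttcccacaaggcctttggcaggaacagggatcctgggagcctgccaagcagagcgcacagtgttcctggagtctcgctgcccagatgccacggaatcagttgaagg
This window held 6 CpG dinucleotides and no TGCCGC on either strand, against 19 and 1 in the printed window of MEG3. IGF2 had no base of its own, and IGF2-AS on the opposite strand had 2 and 0 counts in 52X WT and 0 and 2 in 52X T4A.

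PEG10, a paternally expressed gene derived from a retrotransposon, lies at chr7:94656325-94669695 on the plus strand, with all 13.37 kb unshared. It had 78 and 82 counts in 52X WT and 102 and 89 in 52X T4A, in smaller libraries. The levels were 1.93 ± 0.0937 CPM (SD, n = 2) in 52X WT and 2.81 ± 0.329 CPM in 52X T4A, and both 52X T4A libraries lay above both 52X WT libraries. The log2 fold change was 0.54 (SE 0.26), and it stayed between 0.43 and 0.64 when any 1 library was left out. SGCE, the sarcoglycan gene that starts beside PEG10 on the opposite strand and is also paternally expressed, had 2946 and 3683 counts in 52X WT and 2322 and 2556 in 52X T4A. Its log2 fold change was -0.15 (SE 0.09), with an adjusted p of 0.462 in edgeR's fit.

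Ordered by mean density over the 4 libraries, the set ran from KCNQ1OT1 (0.826) through CDKN1C (0.348) and PEG10 (0.177) to MEG8 (0.00584), MEG3 (0.00463), DLK1 (0.00439), H19 (0.00205) and MEG9 (0). The libraries of KCNQ1OT1 all lay above those of CDKN1C, and the libraries of PEG10 all lay above those of MEG8. CDKN1C and PEG10 overlapped, and so did each neighbouring pair from MEG8 to MEG9. Of the 4 genes that passed the filter, 2 (MEG8 and PEG10) had groups that did not overlap, both in the higher direction, and 1 (MEG8) had an unadjusted p below 0.05. The shares over all tested genes for these were 24.8% and 7.45%, and since the set was chosen on this contrast nothing is read from the comparison.

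Imprinted genes outside the set did not share a direction. Of 64 listed, 13 were at 0 in each library and 36 passed the filter. None of these was called in edgeR's fit, nor with DESeq2. At an unadjusted p below 0.05 in edgeR's fit, 2 lay higher and 5 lower in 52X T4A. The shares over all tested genes were 7.45% and 8.02%. Groups did not overlap for 7 in the higher and 12 in the lower direction, against 24.8% and 24.7% of all tested genes. Among the 7, SLC22A2 passed the low-count filter only through its 52X T4A libraries, so its direction was fixed by the filter. The median log2 fold change was -0.073, against -0.001 over all tested genes, and it was 0.0087 with DESeq2. TFPI2, an inhibitor of serine proteases from the PEG10 cluster, had 252 and 314 counts in 52X WT and 393 and 367 in 52X T4A, with a log2 fold change of 0.72 (SE 0.16) and an adjusted p of 0.186. CPA4, a carboxypeptidase gene, had a log2 fold change of 0.62 (SE 0.28). In the other direction OSBPL5, a lipid transfer protein gene of the CDKN1C cluster, had 890 and 822 counts in 52X WT and 338 and 584 in 52X T4A, with a log2 fold change of -0.62 (SE 0.23) and an adjusted p of 0.276. TSSC4, a gene of that cluster, had a log2 fold change of -0.55 (SE 0.31), and 52X T4A replicate 1 was again the low library.

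The proteins that set and keep imprints were also looked at. They are the zinc finger proteins that find methylated imprints, the corepressor TRIM28, DNA and histone methyltransferases and their partners. Of 22 listed genes, 19 passed the filter, none was called in edgeR's fit or with DESeq2, and an unadjusted p below 0.05 went with a higher level for 0 and a lower level for 3. The groups did not overlap for 3 in the higher and 8 in the lower direction. Over all tested genes these shares were 7.45% and 8.02% by p-value, and 24.8% and 24.7% by overlap. CTCFL, counted here as higher without overlap, passed the low-count filter only through its 52X T4A libraries, so its direction was fixed by the filter. The median log2 fold change of the list was -0.103. DNMT3A, which lays down new DNA methylation, had 2050 and 2050 counts in 52X WT and 1196 and 1321 in 52X T4A, with a log2 fold change of -0.42 (SE 0.11) and an adjusted p of 0.204. The histone methyltransferase genes EHMT1, EHMT2 and SETDB1 had log2 fold changes of -0.38 (SE 0.12), -0.37 (SE 0.19) and -0.26 (SE 0.11). ZFP57 had 0 and 0 counts in 52X WT and 2 and 8 in 52X T4A. DNMT1, which copies methylation after replication, had a log2 fold change of 0.01 (SE 0.10).

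IGF2 acts through the IGF1 and insulin receptors and is cleared by IGF2R, itself an imprinted gene in some species. Of 16 genes of this axis 15 passed the filter, none was called in edgeR's fit or with DESeq2, and with an unadjusted p below 0.05 there were 3 higher and 1 lower gene. The groups did not overlap for 6 genes in the higher and 6 in the lower direction. All tested genes had shares of 7.45% and 8.02% by p-value, and of 24.8% and 24.7% by overlap. IGFBP6, counted here as higher without overlap, passed the low-count filter only through its 52X T4A libraries, so its direction was fixed by the filter. The median log2 fold change of the axis was 0.048, with the opposite sign without 52X WT replicate 2 (-0.026) or 52X T4A replicate 1 (-0.0083). The adaptor gene IRS4 had 61 and 74 counts in 52X WT and 76 and 96 in 52X T4A, with a log2 fold change of 0.64 (SE 0.27) and an adjusted p of 0.318. IGFBP4 and IGFBP3, which bind IGFs outside the cell, had log2 fold changes of 0.54 (SE 0.24) and 0.36 (SE 0.20), and the adaptor gene IRS1 had one of -0.29 (SE 0.11).

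Within 200 kb of the 10 genes the table held 194 other genes, of which 140 were at 0 and 17 passed the filter. None was called in edgeR's fit or with DESeq2, 1 had an unadjusted p below 0.05 and a higher level, 2 had one and a lower level, and the groups did not overlap for 2 in the higher and 5 in the lower direction. For comparison, the shares of all tested genes were 7.45% and 8.02% by p-value and 24.8% and 24.7% by overlap. The 1 neighbour that was higher by p-value was LINC00523, which passed the filter only through its 52X T4A libraries. The neighbours' median log2 fold change was -0.151, and it was above 0 with DESeq2 (0.012) and without 52X WT replicate 1 (0.023) or 52X T4A replicate 1 (0.070). Of these neighbours, 13 were also among the 64 imprinted genes above, 6 of them tested. ZNF835, a zinc finger gene near PEG3, had 120 and 154 counts in 52X WT and 60 and 78 in 52X T4A, with a log2 fold change of -0.70 (SE 0.26) and an adjusted p of 0.272. CARS1, a cysteine tRNA synthetase gene near CDKN1C, had a log2 fold change of -0.22 (SE 0.09).

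**Figure D4:**
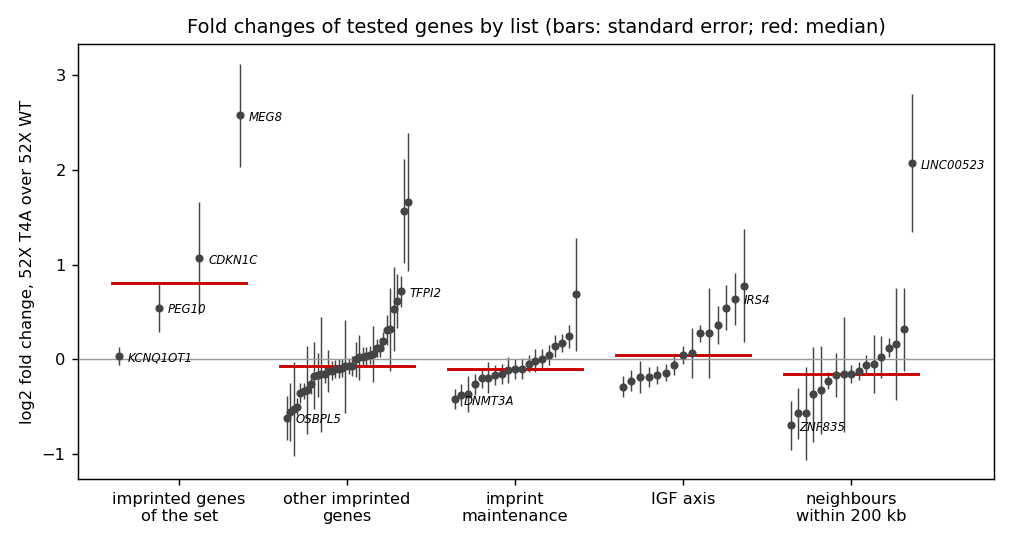
Log2 fold changes of 52X T4A over 52X WT with standard errors for the tested genes of each list, with the list median as a red line. The 4 tested genes of the set run from KCNQ1OT1 (0.04) to MEG8 (2.58). The medians of the other 4 lists drawn lie between -0.151 and 0.048, and single genes of those lists reach 2.07 (LINC00523). Drawn genes that passed the low-count filter only through their 52X T4A libraries include MEG8, LINC00523, SLC22A2, CTCFL and IGFBP6.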

How the data were processed

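The 4 TT-seq libraries were 52X WT and 52X T4A, 2 each. The authors deposited raw counts per gene, made with featureCounts. The submitters' processing notes name FastQC, cutadapt 4.6, STAR 2.7.11b, Picard, deepTools 3.5.6 and GRCh38, and the listed coordinates of 99.969% of 19154 coding genes overlapped their GRCh38 position. Listed gene lengths equal spans, so intronic reads count. Of 60708 identifiers, 58702 were named through GENCODE v44lift37, which supplied names only. The 10 genes, the other lists and the tests were chosen with earlier results of these data known.

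Counts were normalised by TMM and tested with edgeR 4.0.16 (glmQLFit, glmQLFTest) in R 4.3.3, with filterByExpr and Benjamini-Hochberg adjustment over 23321 genes. A gene was called at an adjusted p below 0.05 and a fold above 1.5. Standard errors were derived from the F statistic. Alternatives were DESeq2 1.42.0, other normalizations and filters, a replicate block, each library left out, and, added after seeing the data, counts halved to read pairs. Totals were 39249066 and 45605027 counts in 52X WT and 33853507 and 33188536 in 52X T4A. Exact Poisson intervals (95%) and the limit for a 0 (3 pairs, or 6 counts) are in read pairs and cover counting error only. Promoter and microRNA sequences are those of RefSeq (GRCh38.p14), matched by symbol.

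Genes named besides the 10 were, per list, those called and up to 4 with the largest absolute log2 fold change among tested genes with a mean of at least 50 counts and groups that did not overlap, plus POLR2A and the 3 closest to MEG3. Others are marked in the text or give context to one of the 10. Same-numbered libraries did not deviate together (correlation 0.0176), so replicate numbers were not taken as pairs.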

Additional observations from a re-analysis of the deposited data

How the results depend on the processing

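Over all genes the count of calls was 1 with edgeR, 88 with DESeq2 (25 higher, 63 lower), 65 with no filter on low counts and 433 with the replicate block, and ran from 0 to 2500 when 1 library was left out (195 without 52X T4A replicate 1, 3 and 0 without 52X WT replicates 1 and 2). Such a fit leaves 1 library in an arm and assumes that it varies like the other group. For the 10 genes, which were chosen on this contrast and whose calls support nothing, it was 0, with 1 (MEG8) under the replicate block. For the other imprinted genes it was 2 under the replicate block (OSBPL5 and TFPI2) and ran from 0 to 9 with a library left out. The range was 0 to 1 for the imprint maintenance factors and 0 to 5 for the neighbours, the highest each time without 52X T4A replicate 2. The replicate block changed no other list's count, and the libraries share only a number.

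The log2 fold change of KCNQ1OT1 reversed to -0.036 without 52X WT replicate 2 and to -0.042 without 52X T4A replicate 1, with a highest value of 0.10 with a library left out. That of CDKN1C reversed to -0.20 without 52X T4A replicate 2, and its highest value was 1.73. That of MEG8 ran from 2.26 to 2.91 with a library left out, and MEG8 could not be fitted where 10 counts were asked of every library. The log2 ratio of plus-strand counts of the domain was 1.41, and ran from 1.10 to 1.66 with a library left out. These counts include DLK1, MEG3, MEG8 and MEG9, which were chosen on this contrast, so the ratio supports nothing. Without those genes the plus-strand density was 1.22 times as high in 52X T4A as in 52X WT. The causes were not tested. Depth limits MEG3, DLK1, MEG9 and H19, which had at most 18 counts in any library.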

Other observations

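The following imprinted genes and IRS2 were picked after their values were seen. PPP1R9A, an actin-binding protein gene of the PEG10 cluster, had 6825 and 8355 counts in 52X WT and 4452 and 4320 in 52X T4A, with a log2 fold change of -0.50 (SE 0.09) and an adjusted p of 0.152 in edgeR's fit. GNAS-AS1, the antisense RNA of the GNAS cluster, had 3264 and 3762 counts in 52X WT and 2252 and 2305 in 52X T4A, with a log2 fold change of -0.34 (SE 0.08). RB1, the retinoblastoma gene, had 8457 and 11214 counts in 52X WT and 6378 and 6145 in 52X T4A, with a log2 fold change of -0.36 (SE 0.11). SNHG14, the long host transcript of the Prader-Willi region, had 24 and 24 counts in 52X WT and 88 and 28 in 52X T4A. As for MEG3 and RTL1, its high library was 52X T4A replicate 1. In the IGF axis, IRS2 had 7130 and 8421 counts in 52X WT and 7642 and 7758 in 52X T4A, with a log2 fold change of 0.28 (SE 0.09). None of these genes passed the adjusted threshold in the fit of the 4 libraries.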
